A study of Mus musculus with 2 samples.

Results

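Barcodes carrying epithelial transcripts were found in 1 of the 2 single-nucleus RNA-Seq (snRNA-Seq) libraries of iWAT, the inguinal white adipose tissue that lies under the skin of the groin. They were selected from measured values, as barcodes of the library labelled Lexis WT with at least 500 detected genes and at least 1 unique molecular identifier (UMI, the tag of 1 captured RNA molecule) of at least 3 of the 6 epithelial genes Epcam, Krt8, Krt18, Krt19, Cdh1 and Krt14. No limit was set on mitochondrial RNA. The rule took 66 of 4553 barcodes, or 1.45% (exact 95% interval 1.12 to 1.84, which covers counting error only, as do all intervals below). The same rule took 0 of 3552 barcodes of the library labelled Lexis KO, which allows a share of up to 0.0845% (3 of 3552, the limit set for a count of 0). Over both libraries, 8105 of the 10000 deposited barcodes had at least 500 genes.

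The study asked how Lexis, a long noncoding RNA, acts in fat. The library labelled WT came from Lexis-AdWT mice, littermate controls from the same cross, and the library labelled KO from Lexis-AdKO mice, in which Cre driven by the Adipoq promoter removes a floxed Lexis in adipocytes. All were male C57BL/6 mice fed a Western diet for 4 weeks, and their exact age is not given in the sources used here. Each library pooled iWAT of 3 mice with the lymph node taken out, so there is no replicate, no barcode can be assigned to a mouse, and no test or p-value is given. File names and sample labels give opposite genotypes for both libraries. As Lexis was not analysed here, the genotypes hold as labelled only.

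Epithelial cells line ducts and surfaces, and are held together by claudins, E-cadherin (Cdh1) and desmosomes around a scaffold of keratins. In female mice the inguinal fat pad houses a mammary gland, whose ducts have an inner luminal and an outer basal (myoepithelial) layer. The luminal layer holds hormone-sensing cells, which carry receptors for estrogen, progesterone and prolactin, and alveolar progenitors, which give rise to milk-secreting cells. In male mice the mammary bud is largely lost in the embryo, and a small duct remnant can stay.

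The 66 epithelial barcodes had a median of 1870.5 UMIs (890 to 19170) and 1014.5 detected genes, against 1228 UMIs and 764 genes in the other 4487 barcodes. Levels are given as CPM, the UMIs of a gene summed over barcodes and scaled to a common total of UMIs from non-mitochondrial genes. The epithelial barcodes held 187430 such UMIs and the others 8445356. The libraries shared 12 barcode sequences, and 1 of the 66 was among them.

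The genes of the rule describe the selection and support nothing beyond it. Epcam (an epithelial adhesion molecule) had 543 UMIs in 65 of the 66 barcodes, with a median of 5.5 and a highest value of 49. The keratins of simple epithelia were found in most, with 349 UMIs of Krt18 in 59 barcodes, 297 of Krt19 in 52 and 223 of Krt8 in 50. Cdh1 had 83 UMIs in 41 barcodes. Krt14, a keratin of basal cells, had only 4 UMIs in 4 barcodes, and 65 of the 66 met a rule without it. Of the 66, 21 carried 3 of the rule genes, 20 carried 4, 22 carried 5 and 3 carried all 6.

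Mitochondrial RNA made up a larger share of these barcodes than of the rest. The share lay between 0.515% and 26.3%, with a median of 12.5% and quartiles of 7.54% and 15.4%, against a median of 1.75% in the other barcodes. Summed over UMIs it was 11.7% (interval 11.5 to 11.8) against 3.22%. A limit of 5%, which is common for nuclei, would remove 57 of the 66 (86.4%) and 847 of the other 4487 (18.9%). The mitochondrial transcripts kept like proportions in both sets, with mt-Co1 at 19.5% and mt-Co3 at 17.8% of mitochondrial UMIs in the epithelial barcodes and at 16.2% and 18.0% in the others. Ribosomal protein genes, whose mRNAs are mostly cytoplasmic, were at 7.01% of non-mitochondrial UMIs against 2.80%. The nuclear RNA Malat1 was present in every epithelial barcode, at a median share of 16.9% against 12.6% but a summed share of 16.9% against 20.5%, and Neat1 was lower at 832 CPM against 3725 CPM. What part RNA from outside the nucleus has in the results below was not tested.

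**Figure D1:**
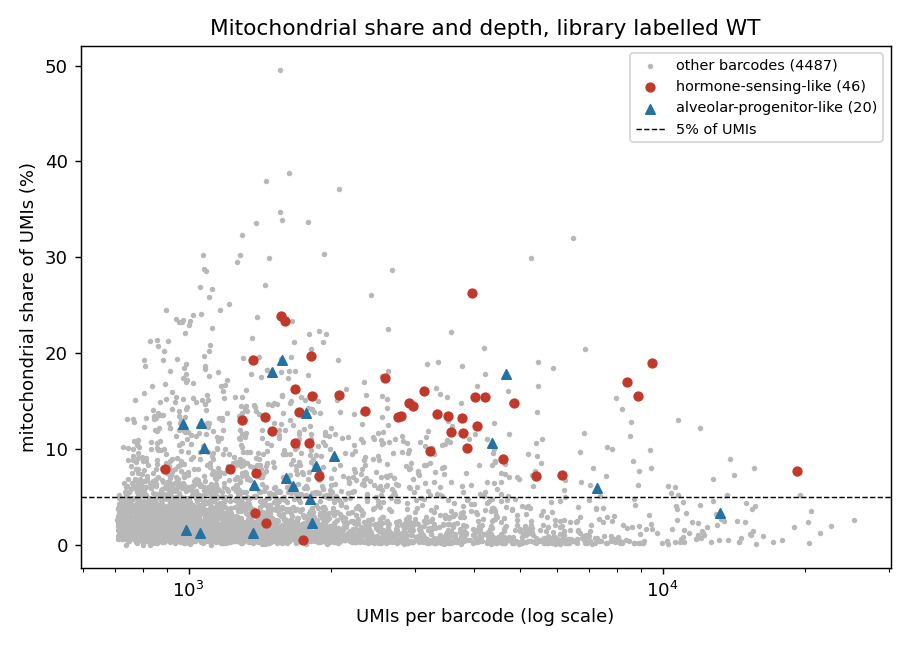
Mitochondrial share of UMIs (%) against UMIs per barcode (log scale) in the library labelled WT, with 1 point per barcode, the 66 epithelial barcodes in colour (circles and triangles for the 46 hormone-sensing-like and 20 alveolar-progenitor-like barcodes defined below) and the other 4487 in grey. Most coloured points lie above the dashed line at 5%, and 9 of the 66 lie at or below it.

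Genes outside the rule separated the epithelial barcodes from the rest of the library by large ratios. The prolactin receptor gene Prlr (chr15:10177238-10349190, GRCm38.p6) had 1015 UMIs in 55 of the 66 barcodes and 210 UMIs in 153 of the other 4487, or 5415 CPM against 24.9 CPM (ratio 218, interval 188 to 254). Ptn, which encodes the secreted growth factor pleiotrophin, had 1285 UMIs in 45 barcodes (6856 CPM against 42.5 CPM, ratio 161, interval 143 to 182). The values were not carried by a single barcode, as the 3 richest held 24.3% of the Prlr UMIs and 26.9% of the Ptn UMIs. Since all genes of these barcodes were seen together with the rule genes, the ratios are descriptions and not tests. In the 9 barcodes with at most 5% mitochondrial UMIs, the ratio was 34.0 for Prlr (interval 20.2 to 54.2), 11.3 for Ptn (5.57 to 20.5) and 2.99 for Slc12a2 (0.360 to 10.95). In the 34 with at least 1000 detected genes, it was 377 for Prlr and 413 for Ptn. Here and below, both limits were set on the compared other barcodes too. Of the 9, 1 barcode held 13212 UMIs, with 1 UMI of Prlr and 0 of Ptn and Slc12a2. It also held 79 UMIs of fibroblast marker genes.

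Of the 11689 genes with at least 50 UMIs over both sets, 15.4% were at least 2-fold higher in the epithelial barcodes, and 32.8% were at 0.5 of the level of the others or less. For 5.3% the whole interval lay at 2 or above, and for 4.58% it lay at 0.5 or below. The median ratio over all genes was 0.791 (log2 −0.34), and it was 0.721 (log2 −0.47) with mitochondrial genes kept in the CPM total, so ratios are to be read against that level.

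The 25 genes with the highest lower limit of the ratio were of several kinds. Secreted proteins among them were Wfdc2, a protease inhibitor-like protein (384 UMIs in 42 barcodes, 2049 CPM against 10.9 CPM, ratio 188), and the fibrinogen chains Fgg (206 UMIs in 35 barcodes, ratio 244) and Fgb (50 UMIs in 14 barcodes, ratio 188). Albumin (Alb) and the other 4 genes of the liver and bile duct list had 0 UMIs in the same barcodes. Claudins of tight junctions formed a second kind, with Cldn4 at 67 UMIs (ratio 274, interval 144 to 576), Cldn7 at 92 (ratio 180) and Cldn3 at 127 (ratio 155). Transcription factors were Foxa1 (73 UMIs in 25 barcodes, 389 CPM against 1.78 CPM, ratio 219), Irx1 (84 UMIs, ratio 115) and Tfap2b (52 UMIs, ratio 90.1). Transport proteins were the sodium-potassium-chloride cotransporter Slc12a2 (631 UMIs in 45 barcodes, ratio 124), the water channel Aqp5 (57 UMIs in 33 barcodes, ratio 103) and the amino acid transporter Slc7a2 (67 UMIs, ratio 168). The remaining leading genes included Krt7, Tspan1, Fcgbp, Ltf, Cited1, Fgfr2 and the heat shock gene Hspa1b. Of the 25, 9 were in the mammary luminal lists. In the barcodes with at most 5% mitochondrial UMIs, Wfdc2, Foxa1, Fgb, Slc7a2, Irx1, Fam25c and Cited1 had 0 UMIs. The rest of the 25 kept a ratio of at least 2 in those barcodes.

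The 10 genes lowest in the epithelial barcodes included several of adipocytes and blood cells. Rhoh, a gene of blood cells, had 0 UMIs in them, against 2681 in the other barcodes. Plin4 and Plin1, which coat the lipid droplet, had 4 UMIs each (ratios 0.025 and 0.043), and Acsl1, which activates fatty acids, had 14 (ratio 0.048).

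To ask which epithelium these genes point to, marker lists of epithelia and of other cells were compared. The mammary luminal lists had the most measured genes at a ratio of 2 or more among the epithelia compared, while the sweat gland list had the highest summed ratio. All 9 measured genes of the shared luminal list had a ratio of at least 2, including Krt7 (81 UMIs in 33 barcodes, ratio 182), the luminal regulator Gata3 (109 UMIs in 43 barcodes, ratio 25.7) and Trps1 (156 UMIs in 52 barcodes, ratio 5.44). The list summed to 6034 CPM against 235 CPM (ratio 25.7, interval 23.8 to 27.6). All 6 measured genes of the hormone-sensing list did so too, and the list reached 7630 CPM against 89.5 CPM (ratio 85.2, interval 78.0 to 93.2). In the alveolar-progenitor list 8 of 9 measured genes were at least 2-fold higher, and the list reached 5314 CPM against 268 CPM (ratio 19.8, interval 18.4 to 21.3). The exception was Lbp, with 5 UMIs and a ratio of 0.404. These counts stand beside 15.4% of all genes at a ratio of 2 or more. The median ratios of the 3 lists were 155, 64.9 and 18.3, beside 0.791 over all genes. Among the 9 barcodes with at most 5% mitochondrial UMIs, the shared luminal list was at a ratio of 12.8 (interval 9.94 to 16.2). The hormone-sensing list was at 11.9 and the alveolar-progenitor list at 26.8 among them, and 6 of the 9 were on the alveolar-progenitor side described below. These 6 include the barcode of 13212 UMIs with 79 fibroblast UMIs. Against other barcodes that also had over 5% mitochondrial UMIs, the alveolar-progenitor list was at 10.8.

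Genes of the basal layer were found at few UMIs. Trp63, the defining regulator of basal cells, had 0 UMIs, Krt5 had 6 in 4 barcodes (ratio 45.1, interval 12.0 to 169) and Krt17 had 8 in 5 (ratio 32.8, interval 11.4 to 89.4). The contractile genes Acta2 (70 UMIs in 21 barcodes, ratio 26.3), Tagln (29 UMIs in 17, ratio 10.8) and Myh11 (15 UMIs in 7, ratio 6.97) were higher, as was the oxytocin receptor Oxtr (9 UMIs, ratio 2.47, interval 1.11 to 4.81). In all, 4 of 6 measured genes had a ratio of 2 or more, beside 15.4% of all genes, with a median of 4.72. Summed, the list was at 1.15 (interval 0.988 to 1.33), as Sparc, with 6208 UMIs in the other barcodes, was lower (ratio 0.189). The sum was at 2.09 (interval 1.48 to 2.87) among barcodes with at most 5% mitochondrial UMIs. Against other barcodes with over 5%, it was at 0.771 (interval 0.659 to 0.898). Of the 182 UMIs of this list, 28 came from 1 barcode of 1456 UMIs, which was singled out after its values were seen. With 2.27% mitochondrial UMIs, this barcode is 1 of the 9 behind the ratio of 2.09, which was not computed without it. It held 11 UMIs of Acta2, 3 of Krt5 and 1 of Krt14, and only 2 UMIs of the hormone-sensing list, by which it is nonetheless counted as hormone-sensing-like below.

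The milk gene list was mixed. It summed to 710 CPM against 268 CPM (ratio 2.65, interval 2.21 to 3.16). The ratio was 1.56 (interval 1.18 to 2.01) with at least 1000 detected genes and 4.57 as a mean over barcodes. Of its 4 measured genes, 2 were at a ratio of 2 or more and 2 at 0.5 or less, beside 15.4% and 32.8% of all genes. Csn2, Wap, Csn1s2a, Lao1 and Glycam1 had 0 UMIs and Csn1s1 had 1. Those at higher levels were Mfge8, a milk fat globule protein (82 UMIs in 21 barcodes, ratio 3.32), Btn1a1, a protein of the milk fat globule membrane (27 UMIs in 13), and Lalba, a subunit of lactose synthase (20 UMIs in 6, ratio 18.8). Xdh, an enzyme that also helps to form milk fat globules, had 3 UMIs in 3 barcodes (ratio 0.195, interval 0.0401 to 0.572). Csn3, a casein gene counted in the alveolar-progenitor list, had 297 UMIs (1585 CPM, ratio 26.9).

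In the sweat gland, salivary, mesothelium and hair follicle lists, most UMIs came from a few genes. The sweat gland list had a ratio of 105 (interval 91.8 to 120), through Slc12a2, Aqp5 and the proton pump subunit Atp6v1b1, which were its 3 measured genes. Foxi1 had 4 UMIs (ratio 30.0, interval 6.23 to 127) and Foxc1 had 3 against 9 in the others (interval of the ratio 2.62 to 60.2). Krt77, Cftr and Best2 had 0 UMIs, and the other 4487 barcodes also had 0 of Krt77 and Cftr. The salivary list had only Aqp5, and 7 of its 8 genes were at 0. The mesothelium list had Krt7, with Msln, Upk3b and Wt1 at 0 in these and in the other 4487 barcodes. The hair follicle list (ratio 12.5) had Sox9 (51 UMIs, ratio 46.9) and Cd200 (65 UMIs, ratio 9.70). Krt17 (8 UMIs, ratio 32.8) and Tchh (7 UMIs against 21, interval of the ratio 5.39 to 36.7) were higher too. Lhx2, Krt75, Krt71 and Krt25 were at 0, and the other 4487 barcodes also had 0 of Krt75, Krt71 and Krt25. Epidermal genes were found at few UMIs, with Krt1, Lor, Ivl and Flg at 0 and 3 UMIs of Krt10 (ratio 1.24, interval 0.252 to 3.72). Ivl and Flg were at 0 in the other 4487 barcodes as well. Krt5, also in the epidermal list, had 6 UMIs (ratio 45.1, interval 12.0 to 169). Summed, the epidermal list had 13 UMIs and a ratio of 1.36 (interval 0.718 to 2.35), so it was not shown to be lower than in the other barcodes. The epididymis, prostate and seminal vesicle, airway, kidney, and liver and bile duct lists had 0 UMIs each. The gut list had 1 UMI and the urothelium list 2. The sebaceous and preputial gland list was at a ratio of 1.66, and the thymic epithelium list at 1.73. The leading genes thus included 9 of the mammary luminal lists, beside Slc12a2 and Aqp5 of the sweat gland list.

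**Figure D2:**
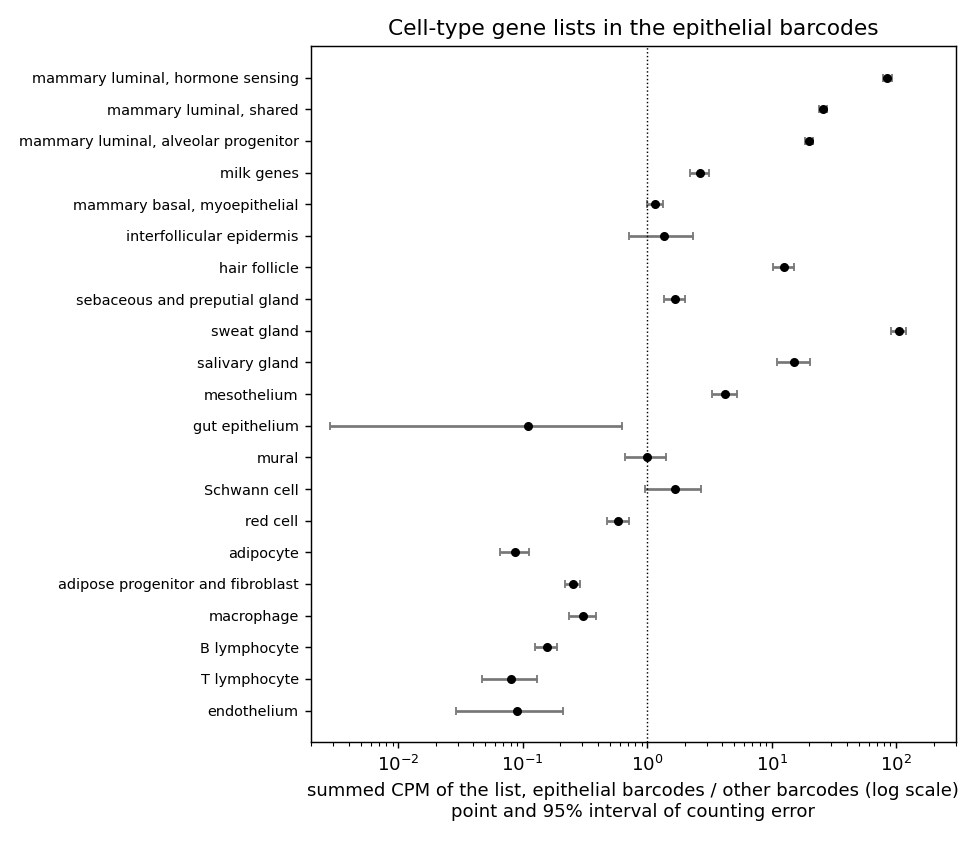
Ratio of summed CPM of the cell-type lists shown between the 66 epithelial barcodes and the other 4487 (log scale), as points with 95% intervals of counting error. The sweat gland list lies highest at 105, the 3 mammary luminal lists lie at 85.2, 25.7 and 19.8, the Schwann cell and mural lists at 1.67 and 0.992, and the adipocyte, fibroblast, macrophage, lymphocyte and endothelium lists below 1.

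The 2 luminal programmes lay in different barcodes. After these values had been seen, the 66 were divided by the share of alveolar-progenitor UMIs among the UMIs of that list and the hormone-sensing list. In 46 barcodes, called hormone-sensing-like, this share was between 0% and 41.9%, and 27 of them had no UMI of the alveolar-progenitor list. They include the barcode with most basal UMIs, whose own markers are basal. In 20 barcodes, called alveolar-progenitor-like, it was between 92% and 100%, and 9 of them had no UMI of the hormone-sensing list. No barcode lay in between. The own-list UMIs per barcode had a median of 20.5 (1 to 155) on the first side and of 34 (16 to 136) on the other. The genes of these lists made the division, so their values on each side are descriptions.

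**Figure D3:**
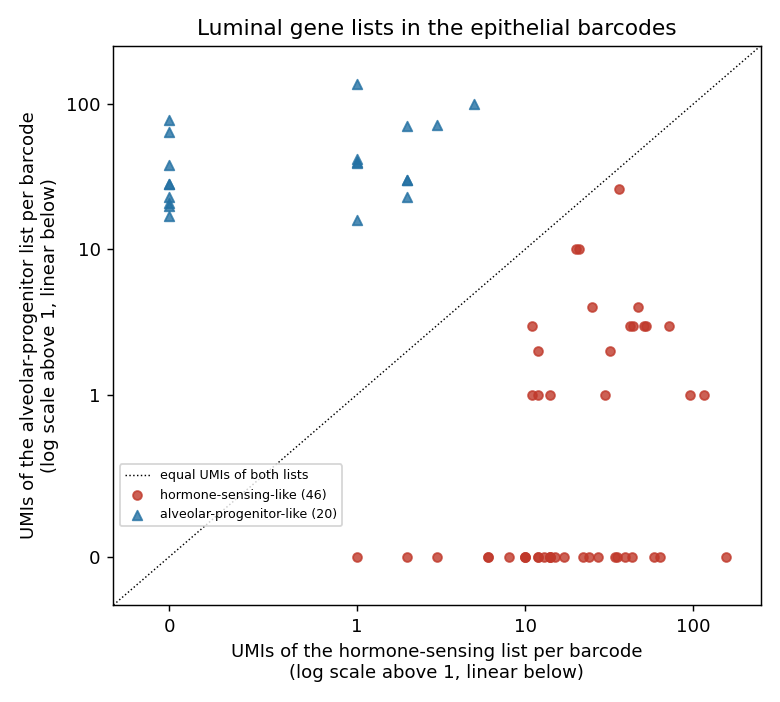
UMIs of the alveolar-progenitor list against UMIs of the hormone-sensing list, with 1 point per epithelial barcode (log scale above 1, linear below) and the diagonal of equal UMIs. The 46 hormone-sensing-like barcodes lie below the diagonal, the 20 alveolar-progenitor-like barcodes above it, and 3 points on the lower side come nearest to it.

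Among the receptors of the hormone-sensing list, Prlr had at least 1 UMI in all 46 hormone-sensing-like barcodes, with a median of 13.5 and a highest value of 111. In the alveolar-progenitor-like barcodes it had 18 UMIs in 9 of 20, with at most 5 per barcode. Esr1, the estrogen receptor alpha, had 76 UMIs in 28 of the 46 and 1 UMI in the 20. Pgr, the progesterone receptor, had 13 UMIs in 9 of the 46 and 0 in the 20. Foxa1, which opens chromatin for the estrogen receptor, had 73 UMIs in 25 of the 46 and 0 in the 20. Wnt4, a signal that acts downstream of progesterone in the mammary gland, had 111 UMIs in 32 of the 46 and 0 in the 20, and the coactivator Cited1 had 79 UMIs against 1. The ligands Areg and Tnfsf11, which hormone-sensing cells release to their neighbours, had 0 and 1 UMI in all 66.

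Other hormone receptors were read from a list written after values were seen. Esr2 and the thyroid receptor Thrb had 0 UMIs in the 66 barcodes. Thra was higher than in the other barcodes (32 UMIs, ratio 2.86, interval 1.93 to 4.08). The growth hormone receptor Ghr (8 UMIs, ratio 0.0997) and the glucocorticoid receptor Nr3c1 (9 UMIs, ratio 0.341) were lower.

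Most alveolar-progenitor genes showed the reverse layout. Csn3, the kappa casein gene (chr5:87925579-87932550), had 289 UMIs in 19 of the 20 alveolar-progenitor-like barcodes, with a median of 12.5, and 8 UMIs in 4 of the 46. Lcn2, a secreted iron-siderophore binding protein, had 187 UMIs in 20 of 20 and 16 UMIs in 11 of 46. The receptor kinase Kit had 72 UMIs in 18 of 20 and 6 in 3 of 46. Ltf, which encodes lactoferrin, was uneven, with 174 UMIs in 13 of the 20 and 78 of them in 1 barcode. Cd14 had 57 UMIs and Wfdc18 had 73, each in 15 of the 20. Elf5, the regulator of the alveolar fate, had 8 UMIs in 7 of the 20 and 0 in the 46. The exceptions were Itga2, with 2 UMIs in the 20 and 5 in the 46 (ratio 1.13, interval 0.108 to 6.93), and Lbp, with 3 and 2 (interval 0.487 to 50.9). Of all 66, 13 had UMIs of both Prlr and Csn3, 42 of Prlr only, 10 of Csn3 only and 1 of neither.

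**Figure D4:**
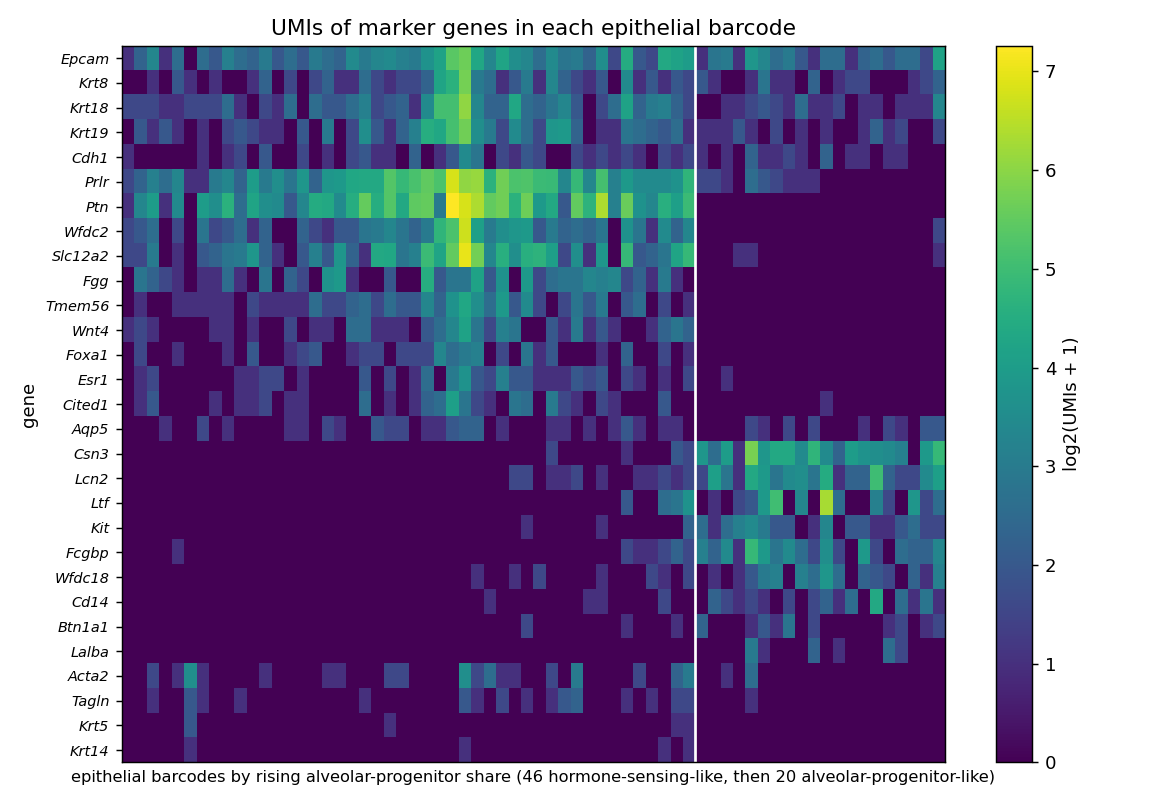
Log2(UMIs + 1) of 29 marker genes (rows) in each of the 66 epithelial barcodes (columns), ordered by rising alveolar-progenitor share, with a white line between the 46 hormone-sensing-like and the 20 alveolar-progenitor-like barcodes. Prlr and Ptn fill the left block and Csn3 and Lcn2 the right one, while Epcam is found on both sides.

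Genes outside these 2 lists also differed between the sides. Of 1692 genes with at least 20 UMIs over both sides, 2.84% had a whole interval at 2 or above on the alveolar-progenitor-like side and 4.49% had one that far on the hormone-sensing-like side. Ptn had 1285 UMIs in 45 of the 46 hormone-sensing-like barcodes and 0 in the 20, at least 151-fold higher with the 0 set at 3 UMIs, and at least 73.2-fold without the 4 mixed barcodes described below. Fgg had 206 UMIs in 35 of the 46 and 0 in the 20 (at least 24.2-fold, or 12.9-fold without the mixed barcodes), and Tmem56 had 161 and 0 (at least 18.9-fold, or 9.63-fold). Slc12a2 had 628 UMIs against 3, and Wfdc2 had 382 against 2. The fibroblast growth factor receptor Fgfr2 had 101 UMIs in 32 of the 46 and 0 in the 20. The calcium-regulating hormone gene Stc2 (141 against 1), the prostaglandin transporter Slco2a1 (178 against 2), the adhesion molecule Alcam (201 against 3) and the calcium-binding S100a6 (576 against 21) lay on the same side. Cldn4 and Krt7, named above for all 66, were mainly on this side, at 66 against 1 and 78 against 3.

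On the alveolar-progenitor-like side, Igfbp5, a secreted binding protein of insulin-like growth factors, had 607 UMIs in 20 of 20 barcodes against 28 UMIs in 14 of 46 (ratio 61.5, interval 42.1 to 93.3). The protease inhibitor Cst3 had 378 against 25 (ratio 42.9), Mfge8 had 78 against 4 (ratio 55.3) and the mucus protein Fcgbp had 139 against 13 (ratio 30.3). The proteoglycan Gpc6 had 35 UMIs in 15 of 20 and 0 in the 46, at least 33.1-fold higher. The hormone gene Cck had 21 UMIs in 11 of 20 and Lalba 20 in 6 of 20, with 0 of either in the 46. Apod had 39 UMIs in 5 barcodes, and Amtn had 36 in 4, of which 30 lay in 1. Cldn3, Cldn7 and Aqp5 were found on both sides, in 13, 10 and 9 of the 20.

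The sides differed in depth and mitochondrial share too. The hormone-sensing-like barcodes had a median of 2788 UMIs and 13.4% mitochondrial UMIs, and the alveolar-progenitor-like barcodes 1632 UMIs and 7.57%. Detection was therefore compared after each barcode was thinned to 1000 UMIs, which left out 1 of the 46 and 2 of the 20. Ptn was then found in 97.8% of 45 hormone-sensing-like barcodes (exact interval 88.2 to 99.9) and in 0 of 18 alveolar-progenitor-like barcodes (upper limit 18.5%). Slc12a2 was found in 82.2% (67.9 to 92.0) and 5.56% (0.141 to 27.3), and Wfdc2 in 75.6% and 5.56%. Csn3 was found in 4.44% (0.543 to 15.1) and 94.4% (72.7 to 99.9), and Lcn2 in 8.89% and 94.4%. Without thinning, the shares for Ptn were 97.8% and 0% and those for Csn3 were 4 of 46 and 19 of 20 barcodes.

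RNA that floats free in the droplets gives some UMIs to every cell type. It was measured in 2952 barcodes of the same library with at least 3 B or T lymphocyte markers, whose median depth was 1140.5 UMIs. Thinned to 1000 UMIs, 1843 of them had Prlr in 1.95%, Ptn in 3.85%, Csn3 in 2.50% and Lcn2 in 1.09%. The 66 epithelial barcodes (63 after thinning) had Prlr in 81.0% (69.1 to 89.8). Csn3, Lcn2, Ltf and Prlr are in the lists that made the division, so their shares on the side with the lower level were set in part by it and are not compared with this background.

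**Figure D5:**
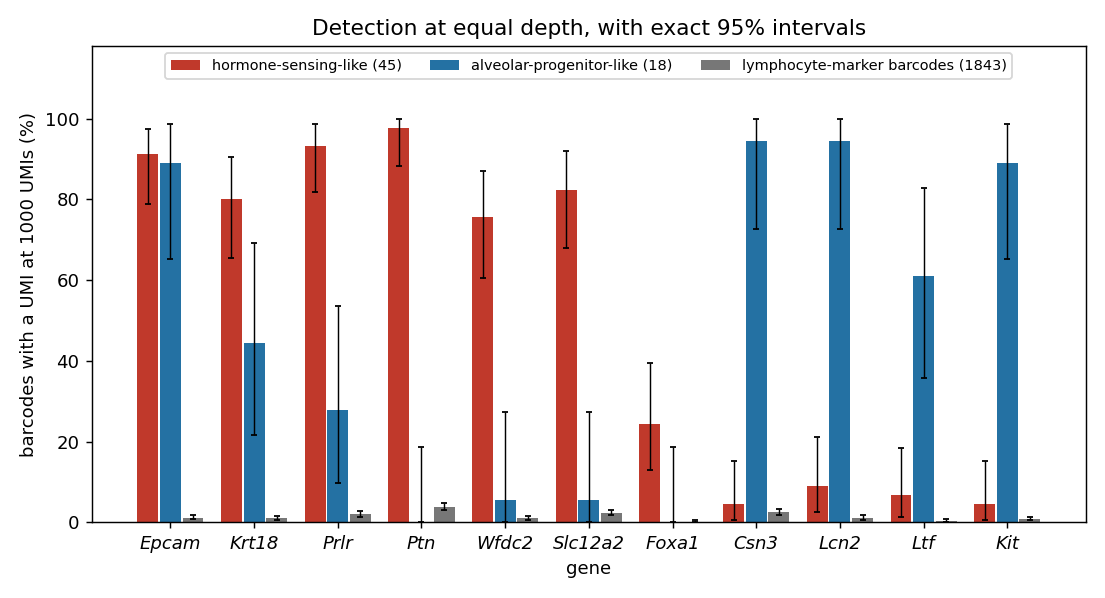
Share of barcodes (%) with at least 1 UMI of each gene after thinning to 1000 UMIs, in 45 hormone-sensing-like, 18 alveolar-progenitor-like and 1843 lymphocyte-marker barcodes, with exact 95% intervals as lines. Epcam and Krt18 belong to the rule, and Prlr, Foxa1, Csn3, Lcn2, Ltf and Kit to the lists that made the division. Prlr, Ptn, Wfdc2 and Slc12a2 are high in the first group, Csn3, Lcn2 and Kit in the second, and the lymphocyte-marker barcodes are at 3.85% or less for every gene shown.

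Most measured genes of epithelial structure and function were higher, with exceptions in several lists. The counts below stand beside 15.4% of all 11689 genes at a ratio of 2 or more. In the tight and adherens junction list, 14 of 14 measured genes had a ratio of at least 2, among them the scaffold Tjp1 (31 UMIs, ratio 8.27) and Cldn10 (40 UMIs, ratio 32.2), and the list had at least 1 UMI in all 66 barcodes. Of the desmosome genes 5 of 6 did, among them Jup (28 UMIs, ratio 9.35) and Dsg2 (29 UMIs, ratio 19.2), and Dsp had 34 UMIs against 15, while Dsc3 had 1 UMI (ratio 0.372). Of the hemidesmosome and basement membrane genes 5 of 7 did, and Lamb3 had 0 UMIs against 219. Of the ion and nutrient transport genes 5 of 7 did, and the water channel Aqp3 had 0 UMIs against 111. Of the growth factor receptors and ligands 6 of 9 did, and Egfr was at 0.568 (interval 0.207 to 1.24). Among other keratins only Krt7 had enough UMIs, and Krt4, Krt6b, Krt13, Krt16, Krt20 and Krt23 were at 0. Of the epithelial transcription factors 8 of 9 measured genes had a ratio of at least 2, with Grhl1 at 7.11 and Ehf at 11.3, while Bcl11a, also a lymphocyte gene, was at 0.117. Erbb3, a receptor of neuregulins, had 42 UMIs in 29 barcodes (ratio 52.6), and its ligand Nrg1 had 0. The membrane protease St14 had 35 UMIs and its inhibitor Spint2 had 83 (ratio 15.2).

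Genes of cell division were low. The 12 genes of cell division had 10 UMIs in all 66 barcodes (ratio 0.188, interval 0.0902 to 0.347), with 2 of Mki67 and 1 of Top2a. Immediate early and heat shock genes, which also respond to tissue handling, summed to 541 UMIs (ratio 3.09, interval 2.83 to 3.37). Of the 15 measured, 9 were at a ratio of 2 or more, 5 lay between and 1 was at 0.5 or less, with a median of 2.47, beside 15.4% of all genes at 2 or more. Fos had 31 UMIs (ratio 4.99), Jun 56 (ratio 4.49) and Hspa1b, already among the leading genes, 61 (ratio 72.3), and Egr1 and Fosb had 0.

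Markers of the main other cells of the depot were low, and some lists of rarer cells were not. The adipocyte list had 61 UMIs in the 66 barcodes (325 CPM against 3758 CPM, ratio 0.0866) with at most 5 in any 1 barcode, and all 8 of its genes were at a ratio of 0.5 or less, as were 32.8% of all genes. The ratio of the list was 0.538 with a rule of at least 2 epithelial genes, 0.222 as a mean over barcodes and 0.0352 with at least 1000 detected genes. The fibroblast list had a ratio of 0.253 and at least 1 UMI in 47 of the 66, the macrophage list 0.303, the B lymphocyte list 0.155, the T lymphocyte list 0.0806 and the endothelium list 0.0902. Among barcodes with at most 5% mitochondrial UMIs, the fibroblast list was not low (ratio 1.06, interval 0.862 to 1.30), where 1 barcode held 79 of its UMIs. The macrophage list was at 0.558 with a rule of at least 2 epithelial genes. The endothelial markers Cdh5, Flt1, Vwf and Emcn were at 0. The lymphoid stroma list was at a ratio of 1.75 (interval 1.54 to 1.99), with 220 of its 241 UMIs from Clu, a secreted chaperone (ratio 7.84), while its 4 other measured genes were at 0.230 or less. The Schwann cell list was at 1.67 (interval 0.962 to 2.70), with 9 UMIs of Sox10 in 6 barcodes. The mural cell list was at 0.992, with 23 UMIs of Notch3 (ratio 7.40) and 0 of Rgs5, Cspg4 and Kcnj8. The red cell list was at 0.587. Of the 66, 4 barcodes held 20 or more UMIs of another cell type's list. They were 1 hormone-sensing-like barcode with 20 fibroblast UMIs of 8862 UMIs in all, and 3 alveolar-progenitor-like barcodes with 79 fibroblast UMIs, 22 macrophage UMIs and 31 B lymphocyte UMIs. These 3 held 47.5% of the UMIs of their side. Without the 4, 29 of the 30 genes listed for the sides kept a whole interval past the fold, and Ebf1, a gene of fibroblasts and B cells, did not (6 UMIs against 6, ratio 5.16, interval 1.38 to 19.3). The number of genes past the fold on the hormone-sensing-like side went from 76 to 39.

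The Y-linked genes Ddx3y, Uty, Kdm5d and Eif2s3y gave at least 1 UMI in 29 of the 66 (43.9%), against 48.5% of the other barcodes, which were shallower. With Xist, they summed to 197 CPM against 484 CPM (ratio 0.408, interval 0.287 to 0.563). Of the 4, 3 were at a ratio of 0.5 or less, beside 32.8% of all genes, and none had a whole interval at 0.5 or below. Xist, the RNA of the inactive X chromosome of females, had 0 UMIs in the 66, 1 in the other barcodes and 4 in the library labelled KO.

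Barcodes just inside and just outside the threshold were set side by side, with no test. The 21 barcodes with exactly 3 rule genes held 4405 CPM of the hormone-sensing list and 9912 CPM of the alveolar-progenitor list. The 33 with exactly 2 held 604 CPM and 4509 CPM. Among those 33, Csn3 had 110 UMIs in 12 barcodes, Lcn2 64 in 13, Prlr 28 in 9 and Ptn 57 in 4, so some barcodes outside the rule carried the same genes. In all, 88 of the other 4487 barcodes had at least 5 UMIs of the 2 luminal lists. In the library labelled KO, 12 barcodes had 1 rule gene and none had more. Wfdc2, Fgg, Foxa1, Cldn4 and Ltf had 0 UMIs there among 3552 barcodes, Ptn had 7, and Prlr had 186 (10.4 CPM). Other leading genes were not low there, with Slc12a2 at 3119 UMIs (175 CPM) and Fgfr2 at 11153 UMIs (625 CPM, against 539 CPM in the epithelial barcodes). That library was the deeper one, with a median of 3527 UMIs per barcode against 1240. With 1 library of each genotype, genotype, dissection and library cannot be told apart.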

How the data were processed

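Nuclei of iWAT were profiled with 10x Genomics 3′ v3.1 chemistry. The authors deposited UMI counts per gene and barcode, made with Cell Ranger (6.1.1 per the file headers); their processing notes name mm10 and Seurat 4. Whether intronic reads were counted is not given in the sources used here. Each library was deposited as 31053 genes by 5000 barcodes, and the UMIs summed to 9376351 (labelled WT) and 19655049 (labelled KO). The labels gave each library its group.

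From these counts, barcodes with at least 500 genes were taken, with no mitochondrial limit. Gene counts were summed over the epithelial barcodes and over the other barcodes of the same library and scaled to CPM without mitochondrial genes. Ratios have exact conditional binomial 95% intervals, with a count of 0 in the denominator set at 3, and shares have Clopper-Pearson intervals. Genes with at least 50 UMIs over both sets were counted as measured. Named genes were those of the lists, the 25 with the highest lower limit (at least 50 UMIs and a UMI in at least 10% of the epithelial barcodes) and the 10 with the lowest upper limit, leaving out rule genes, mitochondrial genes and genes named by clone only. For the sides, the 15 strongest genes each were listed. Scrublet (scanpy 1.11.5) marked 0 of 4553 barcodes as doublets by its automatic threshold, so the 4% with the highest scores (182) were left out as an alternative. The ratio step was tested on simulated data. Python 3.11.15, numpy 2.4.6 and scipy 1.17.1 were used. Of the listed genes, Muc19, Cres and Inadl were not analysed here. A few genes that the naming rule or the lists would give are not reported here. Coordinates are from RefSeq (GRCm38.p6, the assembly of mm10).

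The members and the gene lists were chosen with earlier results of these data known. The division into 2 sides, the hormone receptor list and the alternatives that leave out mixed barcodes or use whole intervals were chosen after values were seen.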

Additional observations from a re-analysis of the deposited data

How the results depend on the processing

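The number of epithelial barcodes, 66, became 34 with at least 1000 detected genes and 9 with at most 5% mitochondrial UMIs, and stayed within 1.5 times otherwise. No member was among the 4% with the highest Scrublet score. Their summed mitochondrial share of 11.7% became 2.79% under the 5% limit, 9.70% with at least 2 rule genes and 12.1% with at least 4. Genes with a ratio of at least 2 went from 1801 to 708 against other barcodes with over 5% mitochondrial UMIs, and to 619 where the whole interval had to pass, an alternative chosen after seeing the data. Genes with a ratio of at most 0.5 went from 3839 to 1934 and 535 under the same alternatives, and to 6197 under the 5% limit. The hormone-sensing list ratio of 85.2 became 102 with at least 1000 genes, 11.9 under the 5% limit, 66.3 with at least 2 rule genes, 77.8 with mitochondrial genes in the total and 73.0 as a mean over barcodes. The alveolar-progenitor list ratio of 19.8 became 16.5, 26.8, 22.1, 18.1 and 26.3 under these, 14.7 with at least 4 rule genes and 10.8 against other barcodes with over 5% mitochondrial UMIs. The alveolar-progenitor-like barcodes numbered 7 with at least 1000 genes, 6 under the 5% limit, 38 with at least 2 rule genes and 11 with at least 4, against 20. Genes past the fold on the hormone-sensing-like side numbered 39 without the 4 mixed barcodes, against 76 (also chosen after seeing the data, as were those for the sides). Prlr was found in 60.6% of members at 500 UMIs, against 81.0%.

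Over the 25 leading genes, 268 of 275 alternatives kept a ratio of at least 2, and 197 of the 275 stayed within the counting interval of the reported ratio. The other 7 were Wfdc2, Foxa1, Fgb, Slc7a2, Irx1, Fam25c and Cited1 under the 5% limit, at a ratio of 0 (0 UMIs in the 9 barcodes left, of which 6 were alveolar-progenitor-like). The fibroblast list turned to 1.06 under that limit (interval 0.862 to 1.30), where 1 of the 9 barcodes held 79 UMIs of that list. With at least 2 rule genes, the macrophage list went from 0.303 to 0.558, the B lymphocyte list from 0.155 to 0.293, the T lymphocyte list from 0.0806 to 0.165 and the endothelium list from 0.0902 to 0.219. Of 465 alternatives in all, 326 moved a value by less than its counting interval or 1.5 times. The cause of the other changes was not tested. No paired analysis was possible because each genotype has 1 library. Depth limits the single barcodes, with a median of 1870.5 UMIs.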
